A study of Mus musculus with 5 samples.

Results

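The genes described here are 34 mouse orthologues of genes tied to autism and other neurodevelopmental disorders in people, taken as a named list from the 34614 protein-coding and long non-coding genes of a RefSeq table of the mm10 build. The rule that names them uses no measured value, though earlier results of these data were known when the list was drawn up. By role they comprise 16 chromatin and transcription-cofactor genes, 4 genes for sequence-specific transcription factors, 8 genes for synaptic proteins, ion channels and adhesion molecules, and 6 genes for signalling, ubiquitin and cytoskeletal proteins. Each was measured over its span with 1 kb either side. The 1 kb either side of its first listed transcription start, or of both gene ends where none was listed, was taken apart. The rest is called the body here, and it keeps any other start inside the gene.

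The DNA came from C57BL/6 mice, from sperm collected by swim-out from the cauda epididymis, where mature sperm are stored. There were 2 libraries from mice aged 18 months (old libraries 1 and 2) and 3 from mice aged 2 months (young libraries 1 to 3). The labels name no treatment, mutation or transgene in either group. Whether the libraries stand for different animals is not labelled, so a p-value here measures the spread between libraries, which may be technical. The question set by the design was which regions differ in methylation between sperm of old and young mice.

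Cytosines followed by guanine (CpGs) carry a methyl group at most places in sperm DNA, in gene bodies as well as between genes. CpG-rich stretches around the starts of many genes are the exception and are left unmethylated. Many of the genes listed here act in the brain, as regulators of chromatin in developing neurons or as parts of the synapse, and several of them are among the longest genes of the genome.

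Whole-genome bisulfite sequencing reads a methylated cytosine as C and an unmethylated one as T, and the level of a region is the share of its reads read as C. The files listed 67774094 to 97769462 reads on CpG cytosines per library, with no cytosine under 5 reads. Reads are counted at each cytosine throughout, so a read that spans several CpGs counts at each of them. Over the 5 libraries 13063725 CpGs were listed, and 2246211 of them (17.2%) were covered by 5 reads or more in every library without passing an upper limit of 193 to 245 reads set per library. These are called common CpGs. The 34 genes held 7683 common CpGs out of 57120 listed (13.5%), with a median of 10 to 15 reads per CpG and library. Dyrk1a stood apart in this respect, with 83 CpGs listed in any library along its 126 kb and 14 common ones.

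The labelled cell type was checked at imprinted genes, whose maternal marks are unmethylated in sperm and methylated on the maternal copy in other cells. Of 14 such genes, 7 had a start or end window with at least 3 listed CpGs in each library. The best covered, Nnat, read 18.3% and 18.6% in the old libraries, against 14.7%, 9.41% and 24.9% in young libraries 1 to 3. The next best covered, Peg3, read 41.4% and 29.1% in the old libraries, against 42.8%, 13.4% and 43.3% in the young ones. Young library 2 was the lowest and young library 3 the highest at both, and also at the upper end of Peg10. Nap1l5 was lowest in young library 2 but highest in old library 1, and Kcnq1ot1 and Plagl1 were not lowest in young library 2. Snrpn was highest in young library 2 (85.0%) and lowest in young library 1 (67.7%). Snrpn at its start and Peg10 at its upper end read 67.7% or more in every library, as did the paternally imprinted H19 at its lower end. An end window may lie away from the start and from the imprint mark. Of the 8 spermatid genes checked, only Tnp1 had a measured window. Its start read 53.8% and 50% in the old libraries, against 93.3%, 23.7% and 64.2% in the young ones, on 15 to 92 reads. Of the markers of other cells, 1 of 5 leukocyte genes (Ptprc, 81.5% to 92.2%) and 3 of 6 epididymal genes (upper ends, 56.5% to 100%) had a measured window. The share of DNA from other cells in each library was not measured.

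CpG-rich starts were where these calls were thinnest. The RefSeq promoter table gave starts for 24 of the 34 genes, 38 starts in all, and Ash1l, Auts2, Grin2b, Shank2, Kdm6b, Nsd1, Wac, Asxl3, Tcf4 and Katnal2 had no entry, so that both ends of the gene were taken for those 10. Only 1 of the 24 first starts, that of Med13l, had 3 or more common CpGs within 1 kb (4.17%), against 4108 of 27025 genes in all (15.2%). The first starts of Trip12, Kmt2a, Shank3, Dyrk1a and Dscam had no CpG listed in any library within 1 kb (5 of 24, 20.8%, against 5.57% of all genes). The promoters, 250 bases before to 50 after each start, held a median of 16.5 CpGs for the listed genes and 7 over all promoters. Over all promoters the share of CpGs listed in at least 1 library was 56.8% where a promoter held up to 4 CpGs and 7.85% where it held 30 or more. Of 805 CpGs in the 38 promoters of the listed genes, 73 were listed in any library and 0 in all 5.

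The 5 promoters printed next span that range, from 3 CpGs to 61. They are from RefSeq (GRCm38.p6), 5′ to 3′ on the strand of the gene, with each CpG in capitals, and they are shown to set the CpGs each holds beside the number that were listed.
Scn2a, first start, chr2:65620519-65620818 (+): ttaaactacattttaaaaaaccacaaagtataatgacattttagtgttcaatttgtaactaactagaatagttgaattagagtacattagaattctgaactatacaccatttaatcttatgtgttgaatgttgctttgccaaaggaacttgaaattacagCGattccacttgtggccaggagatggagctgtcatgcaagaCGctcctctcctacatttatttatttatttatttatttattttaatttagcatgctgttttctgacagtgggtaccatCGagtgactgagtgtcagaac
Scn2a, second start, chr2:65668436-65668735 (+): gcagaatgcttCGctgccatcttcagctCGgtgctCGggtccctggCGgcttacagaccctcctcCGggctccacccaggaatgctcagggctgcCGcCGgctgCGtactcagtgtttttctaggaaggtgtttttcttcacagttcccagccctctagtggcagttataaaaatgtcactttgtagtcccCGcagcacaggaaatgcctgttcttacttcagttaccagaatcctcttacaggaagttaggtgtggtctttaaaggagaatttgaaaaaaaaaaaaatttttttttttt
Myt1l, an inner start, chr12:29534655-29534954 (+): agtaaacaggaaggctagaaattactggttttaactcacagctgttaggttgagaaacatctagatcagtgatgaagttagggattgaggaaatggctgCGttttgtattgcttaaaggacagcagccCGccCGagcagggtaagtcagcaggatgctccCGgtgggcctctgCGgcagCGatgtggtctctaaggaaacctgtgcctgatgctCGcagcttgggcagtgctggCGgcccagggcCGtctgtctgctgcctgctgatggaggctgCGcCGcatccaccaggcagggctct
Shank3, chr15:89499358-89499657 (+): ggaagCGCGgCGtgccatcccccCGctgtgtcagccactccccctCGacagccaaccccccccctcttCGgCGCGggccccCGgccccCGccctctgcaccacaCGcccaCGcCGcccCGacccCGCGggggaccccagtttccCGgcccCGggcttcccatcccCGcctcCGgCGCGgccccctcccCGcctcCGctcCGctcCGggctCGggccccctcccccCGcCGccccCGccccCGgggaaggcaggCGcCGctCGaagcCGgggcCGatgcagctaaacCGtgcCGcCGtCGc
Med13l, chr5:118560469-118560768 (+): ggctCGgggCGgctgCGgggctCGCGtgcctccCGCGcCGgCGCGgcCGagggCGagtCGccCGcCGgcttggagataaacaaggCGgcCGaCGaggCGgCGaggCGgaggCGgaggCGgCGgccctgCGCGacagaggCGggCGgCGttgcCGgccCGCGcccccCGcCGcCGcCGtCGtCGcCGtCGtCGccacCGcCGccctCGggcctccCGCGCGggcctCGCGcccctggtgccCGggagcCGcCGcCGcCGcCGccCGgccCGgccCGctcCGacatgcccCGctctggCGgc

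The pair from Scn2a, which codes for a sodium channel of excitatory neurons, differed in the CpGs held and in the libraries that listed them. All 3 CpGs of the first promoter were listed, with 78 reads over the libraries, and 48.7% of the reads were methylated. Of the 9 CpGs of the second promoter, 6 were listed, all in old library 2, and 0 of 33 reads were methylated. If the 33 counts are taken as separate reads, 0 of 33 allows up to 9.09%, which like every such limit here covers counting error only. Neighbouring CpGs can share reads, so the true limits may be wider, by an amount that was not measured. The 0% rests on old library 2. Within 1 kb of that start it read 5.17%, against 34.5% in old library 1 and 54.5%, 42.9% and 60% in the young libraries, on 5 to 58 reads. In the Myt1l promoter 8 of 11 CpGs were listed, in old library 2 and young library 1, with 0 of 55 reads methylated (up to 5.45%). Myt1l codes for a zinc finger factor of neurons. The Shank3 promoter has 40 CpGs, none of them listed, so nothing can be said of the start of this scaffold protein of the excitatory synapse.

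Med13l, a subunit of the Mediator kinase module, gave conflicting readings around one start. Its 9 common CpGs, which lie after the start, had 1 methylated read of 69 (1.45%) and 0% in old libraries 1 and 2, against 0%, 1.04% and 0% in young libraries 1 to 3. Within the printed promoter, 17 of 61 CpGs were listed, each in a single library, and 63 of their 85 reads (74.1%) were methylated. Of those 17 CpGs, 2 were listed in old library 2, with 8 of 10 reads methylated, and 15 in young library 3, with 55 of 75 reads methylated. Each of the 17 thus had 5 reads, the lowest coverage the files hold. Over all promoters with 30 or more CpGs the methylated share of the listed reads was 70.9%, while it was 2.15% in promoters with 20 to 29 CpGs. The cause of this was not tested.

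Reads of every listed CpG within 1 kb of a start, pooled over the 5 libraries, describe more of the starts. Of the 38 starts, 27 had 50 reads or more, 6 had none, and 7 genes had more than 1 start. Of the 27, 15 were under 20% methylated, 10 were at 60% or over, and 2 lay between. The 15 low starts had a median of 20 CpGs in the 300-base promoter (6 to 61), and the 10 high ones a median of 4.5 (1 to 17). In 21 of the 38 promoters no CpG was listed (55.3%, beside 44.4% of all promoters). Any level at such a start comes only from CpGs elsewhere within 1 kb. As a share of first starts with 50 reads or more, 11 of 16 were under 20% (68.8%), against 31.1% of 21591 first starts of all genes.

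Among the low starts were those of Reln, the secreted guide of migrating neurons (0.441%), Kmt2c, an enzyme that methylates lysine 4 of histone H3 (0% of 203 reads, up to 1.48%), and Tbr1, a factor of deep-layer cortical neurons (1.77%). The starts of Tsc1, a brake on the growth kinase mTOR, Chd8, a chromatin remodeller, and Cul3, the scaffold of a ubiquitin ligase, read 10.2%, 12.5% and 18.3%. Genes with 1 start in the table that read high were Kdm5b, a demethylase of histone H3 (77.0%), Setd5, a chromatin regulator (75.1%), and Pogz, a zinc finger protein of heterochromatin (66.7%). None of the 17 promoter CpGs of Kdm5b or the 16 of Pogz was listed, so their levels are not those of the promoters themselves. Nor was any CpG listed in the promoters of Reln, Kmt2c, Tsc1, Chd8 and Cul3. Deaf1, a DNA-binding regulator of transcription, has a pair of starts, which read 10.9% on 55 reads and 23.2% on 142 reads, while Adnp, a homeobox protein of chromatin, Arid1b and Tsc2 had under 50 reads at theirs. Both Deaf1 values pool unlike libraries. The first start read 0% in old library 1, 12% in young library 1 and 60% in young library 3, on 5 to 25 reads. The other read 47.8% and 72.7% in the old libraries, against 7.69% and 20.9% in young libraries 1 and 2, on 11 to 65 reads.

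**Figure D1:**
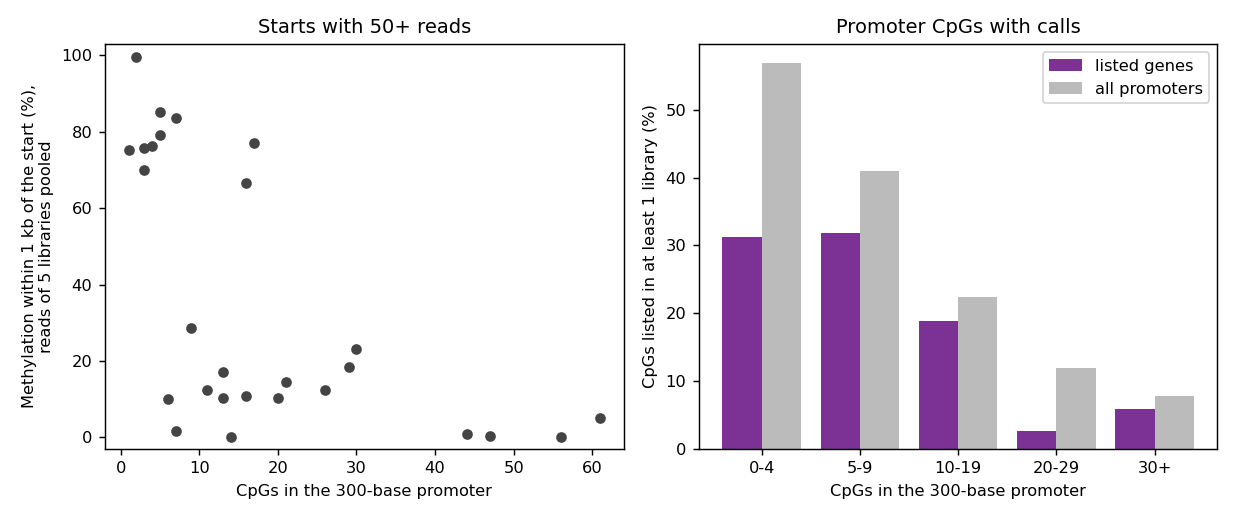
Left, methylation (% of reads of the 5 libraries pooled) within 1 kb of each of 27 listed starts with 50 reads or more, against the number of CpGs in the 300-base promoter, 1 point per start. At some of these starts none of the promoter CpGs was listed, and the reads lie elsewhere within 1 kb. Right, the share of promoter CpGs listed in at least 1 library, for promoters of the listed genes and for all promoters, by CpGs per promoter. The starts with 20 or more CpGs are all at 23.2% or lower, and over all promoters the share of CpGs listed is smaller in each class with more of them.

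Of the 7 genes with several starts, 4 held both a low and a high one among starts with 50 reads or more. Foxp1, a forkhead factor, read 10.3% at its outermost start, 85.3% at the middle one and 0.935% at the innermost, on 349, 224 and 107 reads. Myt1l read 76.3% and 83.6% at its first 2 starts, against 10%, 12.4% and 17.1% at the next 3, whose windows overlap and share CpGs. Ank2, which anchors membrane proteins to the cytoskeleton, read 14.5% at its outermost start, while its 2 innermost starts read 79.1% and 99.5%. Cntnap2, an adhesion molecule of the axon, read 0% of 50 reads (up to 6%) at its first start and 75.7% at a start far inside the gene. Those 50 reads came from the young libraries alone, and none of the 14 CpGs of that first promoter was listed. In each of these 4 genes the start with the most CpGs was a low one. The other 3 genes did not hold both kinds. Scn2a read 70.1% at its first start and 28.6% at its second, where the libraries differed as given above. Deaf1 is also given above, and of the 3 starts of Dyrk1a the first 2 had no reads and the last had 45. These pooled values come from CpGs that differ between libraries, so no comparison of the ages was made on them.

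The ages were compared with a quasi-binomial model of the methylated and unmethylated reads, in which a feature was called at an adjusted p under 0.05 if the difference was also 10 points or more. A feature over 90% in young sperm cannot rise by 10 points, so no rise could be called there. Most bodies and tiles below were at about that level or over it. With no minimum difference, 0 features of any kind were called over the genome as well. Of the start and end windows, 9 in 7 genes had 3 or more common CpGs, and 0 of 9 were called, beside 0% of 6922 windows over all genes. At an unadjusted p under 0.05 there were 0 of 9 (2.12% of all windows). In 0 of 9 did the old and young libraries not overlap (15% of all windows). The median difference, old minus young, was 0.377 points, with 5 windows higher in old sperm, 3 lower and 1 equal. Without young library 2 that median was -0.172 points.

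The window at the lower end of Kdm6b, a demethylase that removes methyl groups from lysine 27 of histone H3, was the best covered. It held 28 common CpGs and read 34.6% and 36.4% in old libraries 1 and 2, against 23.4%, 22.5% and 47.9% in young libraries 1 to 3. Both old values lay inside the range of the young ones (35.5% ± 1.28 and 31.3% ± 14.4, SD, n = 2 and 3; adjusted p = 1). The upper end of Katnal2, a relative of the microtubule-severing enzyme katanin, read 74.0% and 62.0% in the old libraries, against 63.6%, 54.8% and 79.6% in the young ones. Its order of young libraries was the same as at Kdm6b, with library 2 lowest and library 3 highest. Without young library 2 the difference, old minus young, was -0.171 points at Kdm6b and -3.59 points at Katnal2.

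The upper end of Auts2, a gene for a partner of a Polycomb complex, had 0 methylated reads in all 5 libraries, on 49 and 56 reads in the old and 51, 47 and 78 in the young ones. A count of 0 of 47 reads, the lowest of these, allows a level of up to 6.38%. The opposite end of the gene read 91.9% and 96.9% in the old libraries, against 97.7%, 95.0% and 95.5% in the young ones. The remaining windows were methylated at 80% or more in each library. They were the lower end of Katnal2 (93.8% and 95.0%, against 92.3%, 95.9% and 90.4%), the upper end of Tcf4 (96.4% and 98.0%, against 97.6%, 93.8% and 97.1%) and the upper end of Ash1l (95.7% and 96.7%, against 100%, 100% and 96.6%). The upper end of Asxl3, a partner of a histone H2A deubiquitinase, had the largest difference, with 93.5% and 80.0% in the old libraries, against 94.4%, 92.6% and 92.3% in the young ones, on 26 to 36 reads per library. That difference of -6.34 points came from old library 2 alone (adjusted p = 1).

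The bodies were highly methylated at both ages. Bodies of 31 of the 34 genes had 10 or more common CpGs, and those of Tbr1, Adnp and Deaf1 did not. Their median level was 93.2%, beside 93.6% over all 15002 bodies, and 24 of the 31 were at 90% or over. The 7 under 90% were Kdm6b (71.7%), Tcf4 (72.2%), Chd8 (85.2%), Scn2a (86.7%), Dyrk1a (88.5%), Setd5 (89.1%) and Pogz (89.2%).

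Between the ages, 0 of the 31 bodies were called, as were 0% of all bodies, and the smallest adjusted p over all bodies was 0.99986. An unadjusted p under 0.05 was reached by 0 of 31 (1.14% of all bodies). The difference, old minus young, ran from -2.04 to 1.65 points with a median of 0.207 (19 higher in old sperm, 12 lower), beside a median of 0.0982 points over all bodies, of which 54.3% were higher. The old mean lay inside the range of the young libraries for 27 of the 31. For 24 of them the difference was under 1 point in either direction. Taking start windows and bodies together as whole regions, 0 of 31 were called (0% of 16489 regions), 0 of 31 had an unadjusted p under 0.05 (1.41% of all), and 2 of 31 had libraries that did not overlap between the ages (12.8% of all).

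The direction of the median rests on single young libraries. Young library 2 was the highest of the 5 in 21 of the 31 bodies and young library 3 the lowest in 23. Without young library 3 the median difference was -0.526 points, with 10 bodies higher and 21 lower in old sperm. Without young library 2 it was 0.738 points, with 26 higher and 5 lower. Over the bodies, the median level was 93.4% and 93.2% in old libraries 1 and 2, against 93.7%, 94.8% and 91.1% in young libraries 1 to 3.

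**Figure D2:**
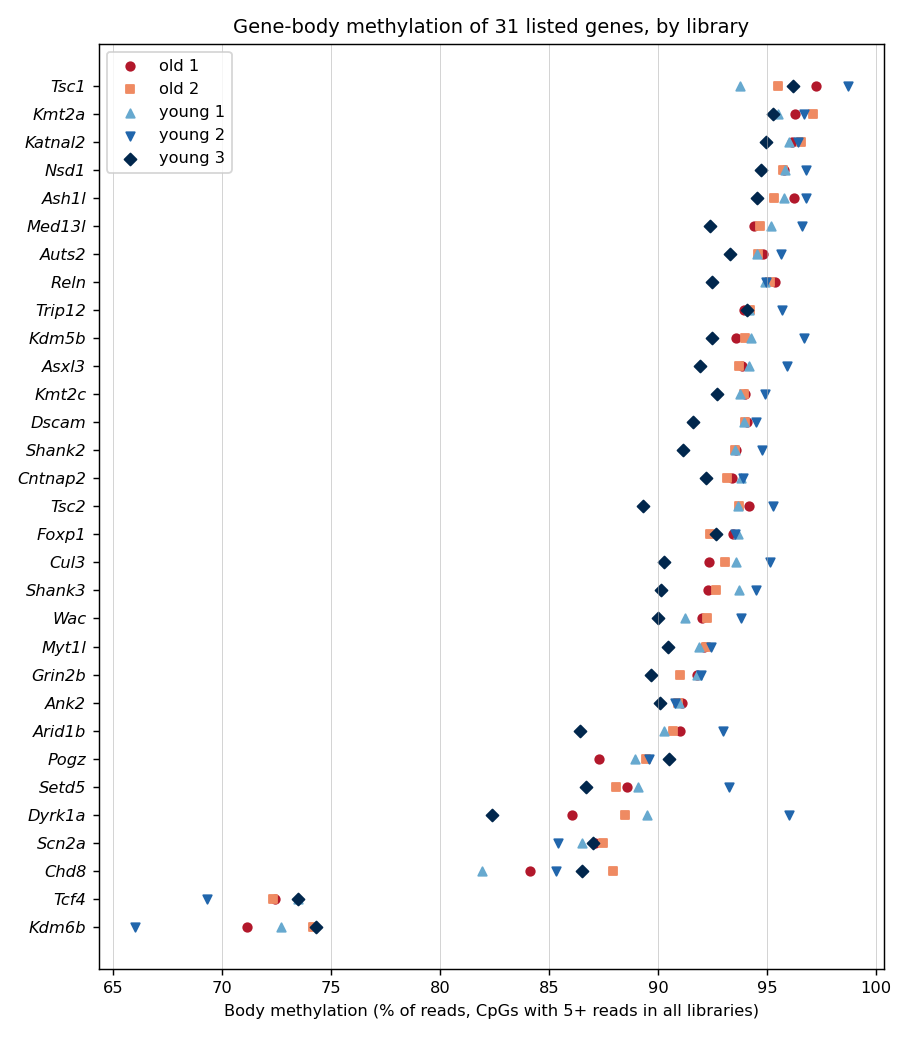
Body methylation (% of reads over common CpGs) of each of the 31 measured genes, 1 mark per library, genes ordered by their mean level. The old libraries lie mostly between young library 2 and young library 3, and Kdm6b and Tcf4 lie apart near 72%.

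Among the 14 chromatin genes with a measured body, 8 were higher and 6 lower in old sperm, with a median of 0.117 points and 0 called. Kdm6b had the largest difference upward. Its body, on 15 common CpGs, read 71.1% and 74.2% in the old libraries, against 72.7%, 66.0% and 74.3% in the young ones (1.65 points, adjusted p = 0.99986), and without young library 2 the difference was -0.866 points. The body of Chd8 read 84.1% and 87.9% in the old libraries, against 81.9%, 85.3% and 86.5% in the young ones (1.44 points), a difference smaller than the SD in either group (2.66 and 2.37). Without old library 2 the Chd8 difference was -0.439 points.

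On the lower side, the body of Setd5 read 88.6% and 88.1% in the old libraries, against 89.1%, 93.2% and 86.7% in the young ones (-1.34 points). Pogz read 87.3% and 89.4% in the old libraries, against 89.0%, 89.6% and 90.5% in the young ones (-1.33 points). Pogz was 1 of 3 genes, with Kmt2a and Scn2a, whose difference exceeded the SD of the young libraries, although its groups overlapped. Kdm5b read 93.6% and 94.0% in the old libraries, against 94.3%, 96.7% and 92.5% in the young ones (-0.705 points). Without young library 2 the differences of Setd5 and Kdm5b turned to 0.442 and 0.404 points, and that of Pogz was -1.38 points.

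The other chromatin genes differed by under 1 point. Kmt2a, like Kmt2c a histone H3 lysine 4 methyltransferase, read 96.3% and 97.1% in the old libraries, against 95.5%, 96.7% and 95.3% in the young ones. Arid1b, a subunit of the BAF remodeller, read 91.0% and 90.7%, against 90.3%, 93.0% and 86.4%. Wac, an adaptor in the ubiquitination of histone H2B, differed by 0.447 points, Auts2 by 0.207, Kmt2c by 0.179, Ash1l, a histone H3 lysine 36 methyltransferase, by 0.0551, Nsd1, another such enzyme, by -0.0126, Med13l by -0.194 and Asxl3 by -0.230. These 7 bodies had mean levels between 91.9% and 95.8%.

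Of the transcription factor genes, Myt1l and Foxp1 had bodies at 91.8% and 93.1%, and Tcf4, a basic helix-loop-helix factor, had one of the least methylated bodies of all the listed genes. Tcf4 read 72.4% and 72.3% in the old libraries, against 73.5%, 69.3% and 73.5% in the young ones (0.317 points, 6478 to 8910 reads per library). Myt1l differed by 0.579 points and Foxp1 by -0.390. The low level of Tcf4 sat in a few tiles of 1 kb: over its 43 tiles at 60% or more, out of 49, the mean was 93.4% in old and 92.9% in young sperm.

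The 8 genes for synaptic, channel and adhesion proteins held the 2 bodies whose old and young libraries did not overlap, both higher in old sperm. That is 2 of 31 bodies, while 12.3% of all bodies did not overlap. Reln read 95.3% and 95.2% in the old libraries, against 94.9%, 94.9% and 92.5% in the young ones (1.16 points, adjusted p = 0.99986). Scn2a read 87.1% and 87.5% in the old libraries, against 86.5%, 85.4% and 87.0% in the young ones (0.988 points, adjusted p = 0.99986). At Reln most of the difference lay in young library 3, and at Scn2a the lower old library and the highest young one were close (87.1% and 87.0%).

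Over the 8 synaptic genes the median difference was 0.401 points, 6 higher and 2 lower, with 0 called. Dscam, an adhesion molecule of axon guidance, differed by 0.686 points, Ank2 by 0.402, Shank2, a postsynaptic scaffold, by 0.399, and Grin2b, a subunit of the NMDA glutamate receptor, by 0.246. Cntnap2, the longest of the genes at 2241 kb, differed by -0.00044 points on 1872 common CpGs (93.3% ± 0.168 in old and 93.3% ± 0.950 in young sperm, SD, n = 2 and 3). Shank3 read 92.3% and 92.6% in the old libraries, against 93.7%, 94.5% and 90.1% in the young ones (-0.324 points).

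In the signalling, ubiquitin and cytoskeletal group 3 bodies were higher and 3 lower, with a median of -0.0932 points and 0 called. Dyrk1a, a kinase of neuronal proliferation encoded in the Down syndrome region of people, had the largest difference of all downward, and also the fewest common CpGs. It read 86.0% and 88.5% in the old libraries, against 89.5%, 96.0% and 82.4% in the young ones (87.3% ± 1.71 and 89.3% ± 6.83, SD, n = 2 and 3). The difference of -2.04 points turned to 1.32 points without young library 2, and to 0.464 points when the levels of single CpGs were averaged. Trip12, a ubiquitin ligase, read 94.0% and 94.2% in the old libraries, against 94.2%, 95.7% and 94.1% in the young ones. Tsc2, the partner of Tsc1, read 94.2% and 93.7% in the old libraries, against 93.7%, 95.3% and 89.3% in the young ones (1.20 points, and -0.526 points without young library 3). Katnal2 differed by 0.548 points, Tsc1 by 0.118 and Cul3 by -0.305.

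At the scale of 1 kb, 1050 tiles with 3 or more common CpGs lay in 33 of the genes, all but Adnp. Of these, 83.3% were at 90% or over, beside 80.3% of all tiles in genes. Only 27 (2.57%, beside 2.91% of all tiles in genes) lay between 20% and 60%, and 6 (0.571%, beside 1.14%) were under 20%. Those 33 tiles were in 14 genes, and 28 of them lay away from the start and end windows. Cntnap2 and Tcf4 held 6 each, Ank2 5, Grin2b and Scn2a 3 each and Chd8 2. Arid1b, Auts2, Foxp1, Katnal2, Kdm6b, Med13l, Myt1l and Tbr1 held 1 each.

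The lowest tiles away from such windows were in Tcf4, on chromosome 18. The tile chr18:69593001-69594000, 250.1 kb from the end of the gene with the lower coordinate, had 30 common CpGs and read 0.474% and 0.530% in the old libraries, against 0.860%, 0.498% and 0.502% in the young ones, on 804 to 996 reads per library. Its neighbour chr18:69592001-69593000 read 0% and 0% in the old libraries, against 0%, 0% and 1.37% in the young ones, on 38 to 73 reads, where a count of 0 of 38 allows up to 7.89%. Both tiles were unmethylated or nearly so at both ages. No start of Tcf4 was listed, so whether an inner start lies at these tiles was not tested.

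Tbr1 was measured in a single tile, chr2:61813001-61814000, near the far end of the gene. It read 8.70% and 7.89% in the old libraries, against 10.8%, 2.70% and 9.89% in the young ones. In Ank2, the tile chr3:127258001-127259000 read 13.0% and 17.6% in the old libraries, against 26.7%, 5.88% and 30.8% in the young ones. A second Ank2 tile, chr3:127309001-127310000, read 23.3% and 17.0% in the old libraries, against 19.2%, 10.1% and 49.6% in the young ones. In each of these 3 tiles young library 2 was the lowest, and the old libraries lay inside the range of the young ones.

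**Figure D3:**
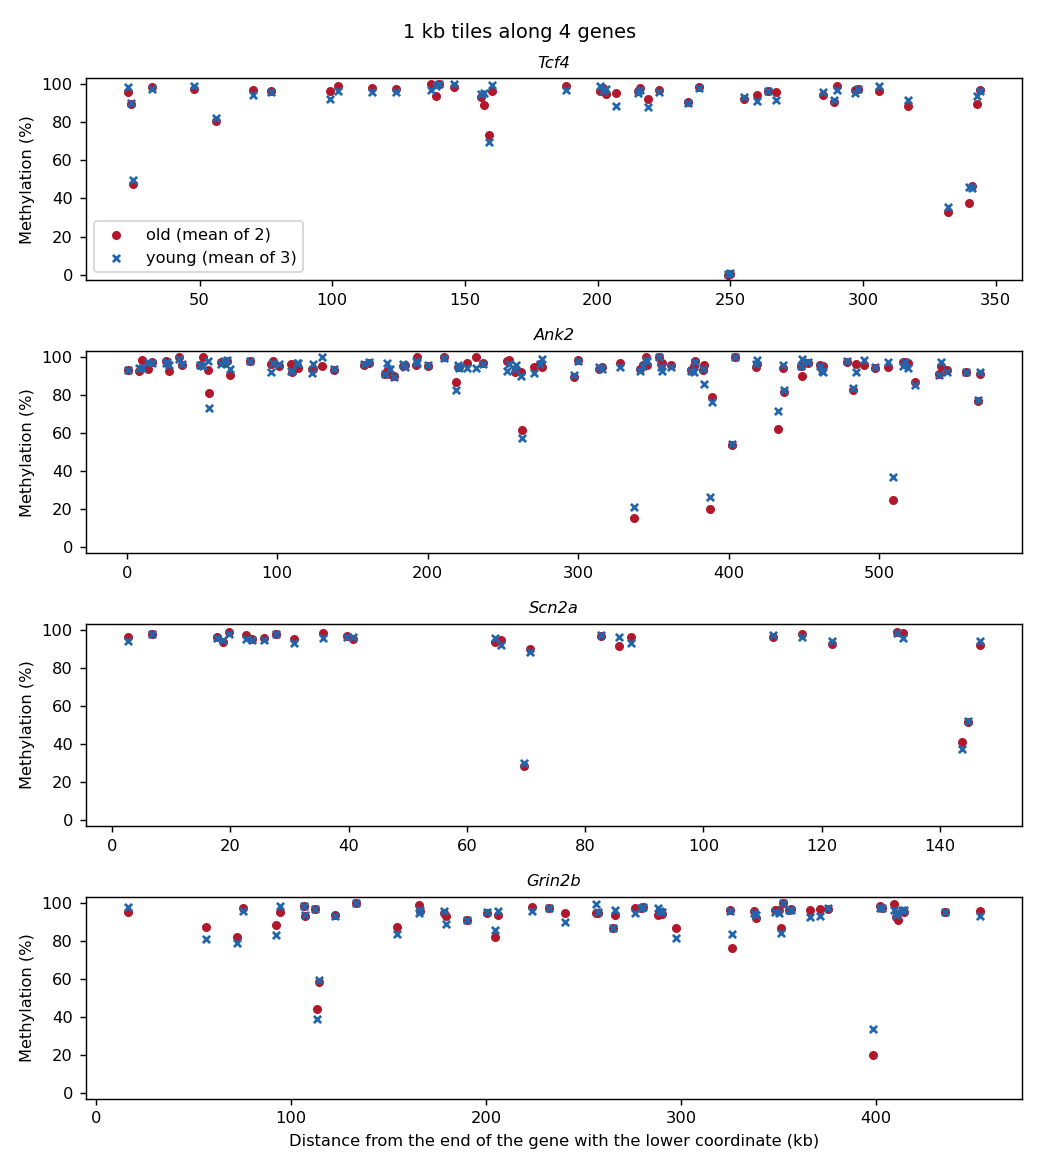
Methylation (%) of 1 kb tiles along Tcf4, Ank2, Scn2a and Grin2b against the distance from the end of the gene with the lower coordinate, as the mean of 2 old and of 3 young libraries. Most tiles lie near the top of the scale, single tiles dip, and the dips stand at the same places at both ages.

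Partly methylated tiles set the young libraries apart from each other more than they set old from young. In the 27 tiles between 20% and 60% the mean was 43.0% and 42.5% in old libraries 1 and 2, against 40.4%, 34.8% and 53.8% in young libraries 1 to 3. Young library 3 was the highest in 17 of the 27 and young library 2 the lowest in 14. The same order held over all 12823 such tiles of the genome, where young library 3 was the highest in 53.7% and young library 2 the lowest in 48.0%. It is also the order seen at the starts of Nnat and Peg3, though not in full at those of Nap1l5, Kcnq1ot1, Plagl1 and Snrpn. The part of this order in the differences between the ages was not tested.

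Some of these tiles were well covered. The Kdm6b tile chr11:69399001-69400000, with 34 common CpGs, read 34.9% and 35.1% in the old libraries, against 23.0%, 21.2% and 47.9% in the young ones. In Tcf4 the tile chr18:69683001-69684000 read 40.4% and 34.8% in the old libraries, against 38.1%, 32.4% and 68.1% in the young ones. The tile chr2:65764001-65765000 of Scn2a read 39.9% and 42.4% in the old libraries, against 40.6%, 25.4% and 46.7% in the young ones.

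Other partly methylated tiles differed less between the libraries. Grin2b held the tile chr6:135827001-135828000 at 58.4% and 58.3% in the old libraries, against 59.3%, 59.9% and 59.3% in the young ones. In Ank2 the tile chr3:127323001-127324000 read 52.0% and 55.5% in the old libraries, against 54.2%, 53.4% and 55.6% in the young ones. At these tiles the 5 libraries lay close together, although the level was near the middle of the scale.

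**Figure D4:**
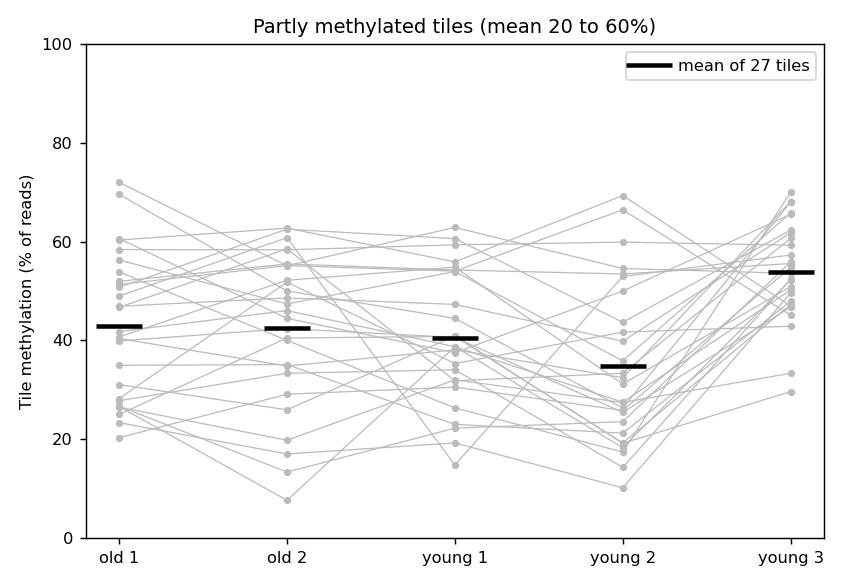
Methylation (% of reads) of each of the 27 partly methylated tiles of the listed genes in the 5 libraries, 1 thin line per tile, with the mean per library as a bar. The means are 43.0% and 42.5% in the old libraries, against 40.4%, 34.8% and 53.8% in young libraries 1 to 3.

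No tile of the listed genes was called different between the ages (0 of 1050, and 0% of 320580 tiles genome-wide, smallest adjusted p = 1). At an unadjusted p under 0.05 there were 28 tiles (2.67%, beside 3.1% of all tiles), of which 18 were higher in old sperm (1.71%, beside 1.78%) and 10 lower (0.952%, beside 1.32%). Old and young libraries did not overlap in 150 tiles (14.3%, beside 17% of all). Each of these shares was at or below that over all tiles. A difference of 10 points or more was seen in 21 tiles (2%, beside 2.55% of all tiles).

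The 5 tiles with the smallest p among those lower in old sperm began with Nsd1. Its tile chr13:55301001-55302000 read 88.0% and 83.8% in the old libraries, against 100%, 100% and 100% in the young ones (-14.1 points, unadjusted p = 0.00287, adjusted p = 1), on 20 to 48 reads per library. The Grin2b tile chr6:136039001-136040000 was better covered, with 313 to 424 reads, and read 77.4% and 75% in the old libraries, against 85.0%, 83.0% and 81.8% in the young ones (-7.04 points, unadjusted p = 0.00635, adjusted p = 1). In both tiles every old library lay below every young one, as in 17% of all tiles in one direction or the other.

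The other tiles of that kind lay in Cntnap2, Ank2 and Auts2. The Cntnap2 tile chr6:45390001-45391000 read 93.5% and 95.8% in the old libraries, against 100% in each young one. In Ank2, chr3:127370001-127371000 read 93.4% and 86.1% in the old libraries, against 100%, 97.1% and 100% in the young ones. The Auts2 tile chr5:131644001-131645000 read 77.6% and 89.6% in the old libraries, against 95.3%, 100% and 93.8% in the young ones. All 3 had an adjusted p of 1.

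Among tiles higher in old sperm the smallest p was that of Dscam. Its tile chr16:96742001-96743000, which lies also in the gene Gm32509, read 100% and 99.1% in the old libraries, against 95.3%, 96.8% and 95.3% in the young ones (3.76 points, unadjusted p = 0.0141, adjusted p = 1). A second Cntnap2 tile, chr6:46120001-46121000, read 100% and 97.9% in the old libraries, against 91.7%, 87.5% and 85.7% in the young ones (10.6 points). Cntnap2 and Auts2 each held a tile among the 5 of each direction, and Cntnap2, with 233 tiles, was the gene with the most.

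The Kmt2a tile chr9:44854001-44855000, which lies also in the gene Gm39326, read 98.2% and 98.8% in the old libraries, against 97.0%, 94.5% and 94.4% in the young ones (3.23 points). In Auts2, chr5:131685001-131686000 read 98.1% and 100% in the old libraries, against 93.8%, 91.7% and 89.1% in the young ones (7.54 points). The Myt1l tile chr12:29861001-29862000 read 100% and 96.7% in the old libraries, against 90%, 84.6% and 84.6% in the young ones (11.9 points). Each had an adjusted p of 1.

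The tile with the largest difference in either direction lay beside the outermost start of Foxp1, at chr6:99519001-99520000. It read 26.6% and 7.63% in the old libraries, against 38.7%, 18.3% and 52.2% in the young ones (-19.3 points, unadjusted p = 0.0461, adjusted p = 1). The old and young libraries overlapped, and the young ones alone spanned 18.3% to 52.2%. This tile was singled out after its values were seen.

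**Figure D5:**
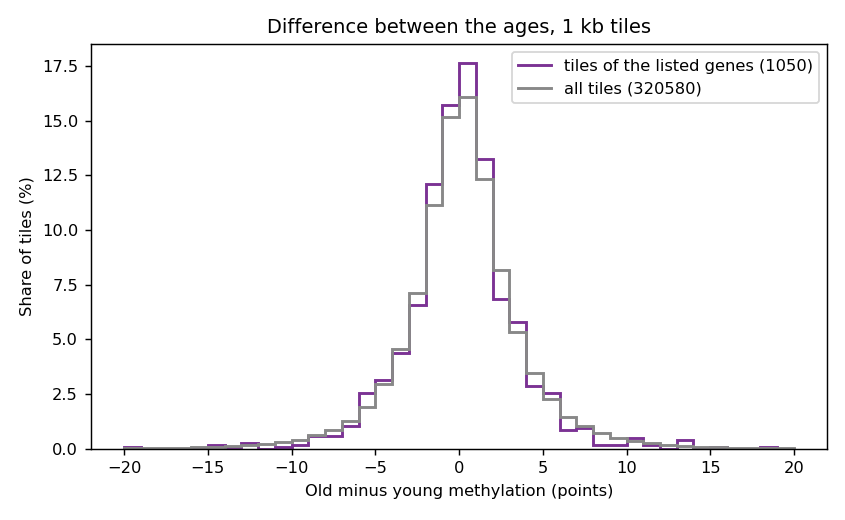
Share of tiles (%) by the difference in methylation, old minus young (points, bins of 1 point), for 1050 tiles of the listed genes and for 320580 tiles of the genome. Both curves peak near 0, and differences of 10 points or more make up 2% and 2.55% of the tiles.

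A second list held 42 autism and neurodevelopmental genes outside the 34. Bodies of 32 were measured, 18 higher and 14 lower in old sperm with a median of 0.0944 points, and 0 were called. Old and young libraries did not overlap in 7 of the 32 (4 higher in old sperm, 3 lower), beside 12.3% of all bodies. Bcl11a, a zinc finger repressor, was the one with an unadjusted p under 0.05, which 1.14% of all bodies reached. Its body read 77.0% and 74.8% in the old libraries, against 72.6%, 72.2% and 71.4% in the young ones (3.87 points, adjusted p = 0.99986). Both old libraries lay above the young ones there.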

How the data were processed

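Bisulfite sequencing libraries of sperm DNA, 2 old and 3 young, were grouped by the labelled age. The submitters' processing notes name the genome build mm10 (GRCm38) and the programs methylKit 1.4.0, Bismark 0.16.3 and Trim Galore 0.4.3; settings, and whether duplicates were removed, were not given in the sources used here. For each strand of a CpG the deposited files hold, per the file headers, a read count as coverage. Beside it stands, per the file headers, the percent of reads with a C and with a T. Incomplete conversion cannot be told from methylation in such reads, and limits of a count of 0 cover counting error only. These limits take the counts as separate reads, although a read that spans several CpGs is counted at each.

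Reads of both strands were summed, and common CpGs had 5 reads or more in each library and did not pass its upper coverage limit, a high percentile of all its CpGs that came to 193 to 245 reads. The level of a feature was the methylated over all reads. Start windows used the first start in the RefSeq promoter table (GRCm38.p6), or both gene ends where a gene had no entry. Start windows and tiles of 1000 bp needed 3 common CpGs, and bodies and regions 10. Exons, introns and other features inside genes were not used here. Old and young sperm were compared feature by feature in a quasi-binomial logistic model, whose dispersion was shrunk across all features of a kind by the method of limma (squeezeVar) and held at 1 or more. Benjamini-Hochberg adjustment ran over all features of a kind. On simulated data the test estimated known changes without bias and recovered large changes in gene regions, but few in single tiles and few of moderate size in start windows. Bodies were not simulated. Rises were simulated only in features below the levels of the measured bodies of the listed genes, so recovery of rises at such levels was not tested. Priors of the dispersion from features with a binomial variance of at least 1, or 2, in every library were added after seeing the data.

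The named bodies are the 5 with the largest difference in each direction, the named tiles the 5 with the smallest p in each direction and the 5 least methylated away from start and end windows. All measured start and end windows are given. The members and lists were chosen with earlier results of these data known. Alternatives covered coverage, the dispersion model, limma 3.58.1 (R 4.3.3) on log2((methylated + 1)/(unmethylated + 1)), window and tile size, the CpGs used, the replicate number as a block, and leaving out each library. The software was Python 3.11.15 with scipy 1.17.1, numpy 2.4.6, pandas 2.3.3 and, for figures, matplotlib 3.10.9.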

Additional observations from a re-analysis of the deposited data

How the results depend on the processing

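No start or end window, body or region of the listed genes was called under any model tried. The only alternative that called any of their tiles was the binomial model without extra dispersion. It called 3 of their 1050 tiles, beside 700 of 320580 tiles over the genome. Over all genes, the binomial model called 39 regions (23 higher in old sperm, 16 lower), 45 windows, 16 bodies and 700 tiles (311 higher, 389 lower). With the replicate number as a replicate block, which keeps old and young libraries 1 and 2, 7 regions (all higher) and 13 bodies (11 higher, 2 lower) were called. The labels do not pair these numbers, and the deviations of equally numbered old and young libraries correlated at 0.0095 and -0.0200 over tiles. A dispersion prior from features with a binomial variance of at least 1 called 2 tiles, and one with at least 2 called 0. The cause of these changes was not tested. Calls stayed at 0 with limma on log2 odds (unadjusted p under 0.05 at 384 regions, 250 windows, 321 bodies and 13724 tiles), with no minimum difference, at 10 reads, with no upper limit of coverage, with other windows or tiles and without each library. Without young library 3, however, the smallest adjusted p was 0.0413 over regions and 0.0297 over bodies, with 1095 and 1005 features at an unadjusted p under 0.05, and the count of 0 there rests on the minimum of 10 points.

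Leaving out 1 library each, the median difference of the bodies ran from -0.526 to 0.738 points and that of the windows from -0.172 to 0.433 points, so neither has a settled sign. With every CpG a library covers, the medians were -0.113 points for 34 bodies and -1.23 points for 17 windows. Over 327 alternatives to the single values of 34 named features, 297 lay within 1 SD and 30 moved by more. The latter include settings in which the upper end of Auts2, with an SD of 0, stayed at 0 points. Another sign was seen in 30 of the 327, counted apart from the size of the move, and many of these lay within 1 SD. Depth limits the precision of tiles and windows, with a median of 55 to 81 and 62 to 98 reads per library.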

Other observations

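Among the 42 other autism and neurodevelopmental genes, Shank1 and Gria2 also had bodies under 90%. Shank1, a postsynaptic scaffold, read 76.8% and 76.0% in the old libraries, against 74.7%, 79.6% and 69.3% in the young ones. Gria2, a subunit of the AMPA glutamate receptor, read 78.1% and 75.6% in the old libraries, against 78.5%, 77.7% and 80.1% in the young ones (-1.95 points, adjusted p = 0.99986 in the quasi-binomial model). Neither difference passed the test.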
